A study of Mus musculus with 6 samples.

Results

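The ErbB receptor family has 4 genes in the mouse, Egfr, Erbb2, Erbb3 and Erbb4, and all 4 were found by symbol among the 54232 gene rows of the count files. All 4 also passed the filter on low counts that left 16752 genes for testing. Tumors of NIC mice gave 6 RNA-seq libraries, of which 3 carry the label CdGAP wt/wt (wt1 to wt3) and 3 the label CdGAP fx/fx (fx1 to fx3). In NIC mice a mouse mammary tumor virus promoter expresses 1 transcript that holds both an activated Neu cDNA, the rat form of ErbB2, and Cre recombinase, so the oncogene and the recombinase are made by the same mammary epithelial cells. CdGAP is encoded by Arhgap31, and its floxed alleles in fx/fx animals can be recombined where that transcript is made. Both genotypes carry the oncogene, and age, strain background and whether each library is a separate animal are not given in the sources used here, so the p-values rest on the spread among these libraries, which may be technical.

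ErbB receptors are transmembrane tyrosine kinases that pair with each other after a ligand binds. ErbB2 has no known ligand of its own and is the preferred partner of the others, and ErbB3 has a weak kinase and passes the signal on mainly by recruiting phosphoinositide 3-kinase. In the mammary gland Egfr acts in ductal growth, with a large part of its action in the stroma, and ErbB4 acts in alveolar differentiation and lactation through Stat5. Activated ErbB2 with ErbB3 as its partner drives the tumors of this and related models.

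The members lie on 3 chromosomes of the GRCm38 build. Egfr (ENSMUSG00000020122) spans chr11:16752203-16918158 on the plus strand, and Erbb2 (ENSMUSG00000062312) lies far from it at chr11:98412470-98437716, also on the plus strand. Erbb3 (ENSMUSG00000018166) spans chr10:128567523-128589652 and Erbb4 (ENSMUSG00000062209) chr1:68032186-69108059, both on the minus strand. Their coding sequences are related, with between 59.9% (Erbb2 and Erbb3) and 63.8% (Egfr and Erbb4) of aligned coding bases identical.

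Because Erbb2 was far more abundant than its relatives, the longest stretches that it shares with them are shown here. Each is the longest run of identical bases between the longest coding transcripts of a pair, in the sense of the genes and 5′ to 3′.
Erbb2 and Erbb4, 22 bases: tcatggtcaaatgttggatgat
Erbb2 and Egfr, 20 bases: gtctacatgatcatggtcaa
Erbb2 and Erbb3, 16 bases: tgctggagaagggaga
In Erbb2 all these runs start in exon 23, at chr11:98434937-98435284 (across the intron to exon 24), chr11:98434927-98434946 and chr11:98434877-98434892. No run of identical bases between any of the 6 pairs was longer than 22 bases. The receptor rows therefore have little identical sequence in common, whereas the mouse Erbb2 row can also hold reads from the transgene. Rat sequence was not used here, and the share of transgene reads in the Erbb2 row was not measured.

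Fx1 stood apart from the other libraries in the genes of cytosolic ribosomal proteins, whose mean log2 CPM relative to the wt/wt mean was -0.94 over 78 genes, against -0.16 to 0.12 elsewhere (CPM are counts per 1000000 counts on scaled library sizes). Library totals ran from 36732137 (fx2) to 53606276 (fx1) counts, and the targeted gene Arhgap31 measured 433 to 664 CPM in wt/wt and 44.1 to 156 CPM in fx/fx. Luminal epithelial markers were present in every library, their sum being 5417 to 5810 CPM in wt/wt and 4660 to 6094 CPM in fx/fx. Krt5, Krt14 and Krt17, keratins of basal cells, stayed at 2.70 CPM or less in every library. At that low level Krt5 was separated, at 0.156 to 0.371 CPM in wt/wt and 0.750 to 1.67 CPM in fx/fx (4.65-fold higher; DESeq2 adjusted p = 0.00627, edgeR adjusted p = 0.185). Other basal or myoepithelial markers were more abundant, with Acta2 at 14.8 to 48.5, Mylk at 11.6 to 32.7 and Tagln at 8.40 to 27.8 CPM over the libraries. The remaining markers of that list measured at most 7.63 CPM.

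Per length, Erbb2 was the most abundant receptor and Erbb3 the next in all 6 libraries. Counts per kb of exon per 1000000 counts (FPKM) allow levels of different genes to be compared, and Erbb2 measured 323, 453 and 182 FPKM in wt1, wt2 and wt3 and 718, 329 and 439.5 FPKM in fx1, fx2 and fx3. Among 13916 protein-coding genes ranked by FPKM, Erbb2 was between the 199th (wt3) and the 24th (fx1). Erbb3 measured 66.2, 66.3 and 53.5 FPKM in wt/wt and 42.5, 57.0 and 74.0 FPKM in fx/fx, and ranked between 642 and 1175. The lowest Erbb2 level (182 FPKM, wt3) was above the highest Erbb3 level (74.0 FPKM, fx3), and within a library Erbb2 exceeded Erbb3 by between 3.41-fold (wt3) and 16.9-fold (fx1).

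Egfr and Erbb4 were much lower than Erbb3 and close to each other in wt/wt. Egfr measured 8.88 ± 1.84 FPKM in wt/wt and 7.93 ± 1.43 FPKM in fx/fx (SD, n = 3 each), and Erbb4 measured 6.97 ± 2.35 and 3.25 ± 0.470 FPKM. In wt/wt the order of Egfr and Erbb4 was not fixed, since Erbb4 was above Egfr in wt2 (9.68 against 7.02 FPKM) and below it in wt1 and wt3. All 3 fx/fx libraries had Egfr above Erbb4, by 2.19-fold in fx1, 2.42-fold in fx2 and 2.72-fold in fx3.

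**Figure D1:**
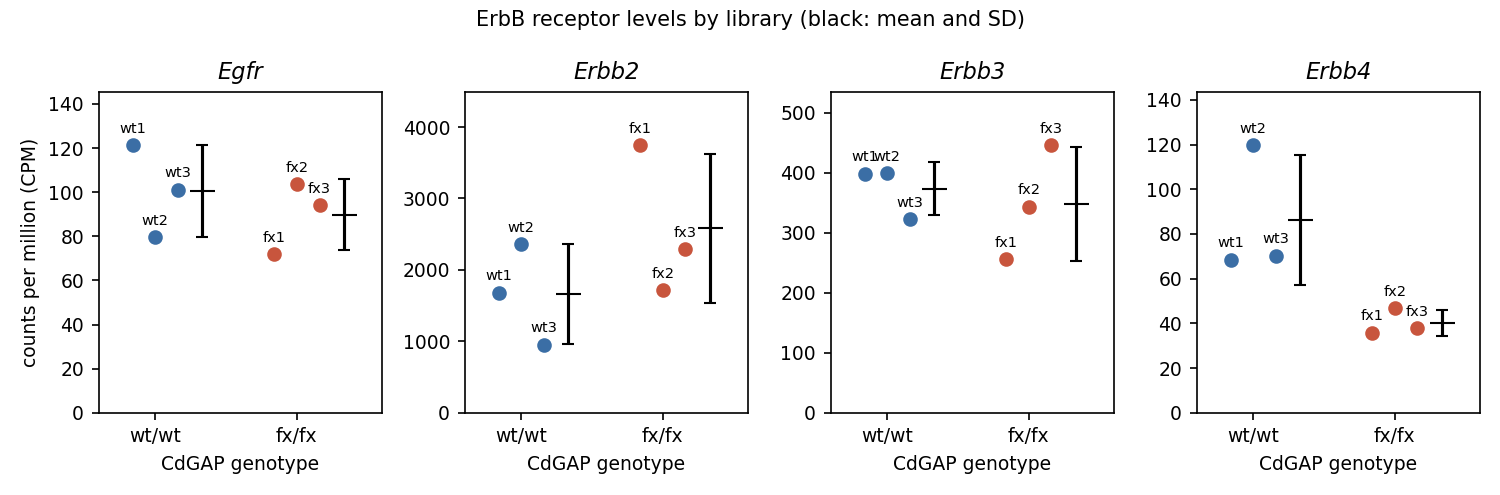
CPM (each panel from 0) of the 4 receptors in each library, by CdGAP genotype, with black bars for the mean and SD of 3 libraries. Erbb4 is the receptor whose genotypes do not overlap, at 68.4 to 120 CPM in wt/wt and 35.9 to 46.8 CPM in fx/fx, and Erbb2 has its highest library, fx1, at 3742 CPM.

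Erbb4, a neuregulin receptor, had lower counts in the fx/fx tumors, without overlap between the genotypes. Its level was 68.4 CPM in wt1, 119.6 in wt2 and 70.3 in wt3, against 35.9 CPM in fx1, 46.8 in fx2 and 37.8 in fx3. The fx/fx libraries lay close together, and wt2 was high among the wt/wt libraries. Wt/wt averaged 86.1 ± 29.0 CPM and fx/fx 40.2 ± 5.80 CPM (SD, n = 3 each), so that fx/fx stood 2.14-fold below wt/wt (log2 fold change -1.10, SE 0.26). Erbb4 did not pass edgeR's quasi-likelihood test after Benjamini-Hochberg adjustment (adjusted p = 0.185, unadjusted p = 0.0033), and DESeq2 called it lower (adjusted p = 0.0187). On simulated counts DESeq2 made more false calls than its threshold allows, a limit on every DESeq2 call given here.

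Over all genes, edgeR called 0 of 16752 (0%) at an adjusted p under 0.05, with 14.2% below an unadjusted 0.05, made up of 8.18% higher and 6.04% lower. DESeq2 called 831 of 18033 (4.61%), with 2.89% higher and 1.72% lower. The genotypes did not overlap for 19.7% of the genes tested, with 9.74% higher and 9.93% lower in fx/fx. Against that background, 1 of the 4 receptors had separated genotypes and 1 was called by DESeq2, Erbb4 in both cases. The DESeq2 call of Erbb4 was lost without wt2 (log2 fold change -0.81, adjusted p = 0.0578), without fx1 (-1.03, adjusted p = 0.105) and without fx3 (-1.05, adjusted p = 0.0775), and remained without wt1, wt3 or fx2. Its fold change was negative with any library left out, between -1.24 and -0.79 in edgeR.

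In bulk tumor RNA, fewer cells that express a gene and less RNA per cell cannot be told apart. Markers of several non-luminal cells were higher in the same fx/fx tumors in which Erbb4 was lower. The sum of the 10 fibroblast markers was 327 to 570.5 CPM in wt/wt and 874 to 1617 CPM in fx/fx, with 9 of 10 higher, and that of the 9 adipocyte markers was 31.0 to 75.9 against 106 to 305 CPM, with 9 of 9 higher. Sums of the 10 basal or myoepithelial markers were 47.1 to 55.2 and 77.1 to 112.5 CPM, with 9 of 10 higher. In that list Acta2, Mylk and Tagln had the highest levels. Genotypes were separated for 3 of its 10 members, all higher, where 9.74% of all genes were separated and higher. They overlapped for Krt14, Krt17, Mylk and Tagln. The sums of the 8 endothelial markers overlapped (93.6 to 120.2 and 113 to 225 CPM), with 8 of 8 higher and a median log2 fold change of 0.75. Of these 4 lists, edgeR called 0 members in each, and DESeq2 called 6 fibroblast, 4 adipocyte, 1 basal and 1 endothelial marker higher. Among all genes DESeq2 called 2.89% higher. It also called 2 of the 10 luminal markers and 1 of the 8 immune markers tested higher. Sums over luminal markers overlapped between the genotypes, as did those over the 9 immune markers (87.8 to 160 and 79.2 to 168 CPM) and the 8 Schwann cell markers (1094 to 1239 and 1070 to 1412 CPM). Sox10 alone gave 824 to 1120 CPM of the Schwann cell sum. The part of these cell types in the Erbb4 result was not tested.

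Erbb3, the partner of ErbB2, was at 398.5 CPM in wt1, 398.8 in wt2 and 322 in wt3, against 256 CPM in fx1, 343 in fx2 and 445 in fx3. The genotypes overlapped, with the lowest and the highest library both in fx/fx. The log2 fold change was -0.10 (SE 0.24; edgeR adjusted p = 0.891, DESeq2 adjusted p = 0.930), and 2 SEs to either side reach from -0.59 to 0.39. Without fx1 the direction turned, to a log2 fold change of 0.066.

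Egfr, the receptor of Egf, Tgfa and amphiregulin, measured 121, 79.5 and 101 CPM in wt/wt and 71.9, 103.5 and 94.1 CPM in fx/fx. Its highest library was wt1 and its lowest fx1, and the genotypes overlapped. The log2 fold change was -0.16 (SE 0.22; edgeR adjusted p = 0.796), with -0.61 and 0.28 at 2 SEs to either side. Egfr and Erbb3 also varied little between libraries, the highest over the lowest of 6 being 1.68-fold and 1.74-fold, against 3.33-fold for Erbb4 and 3.94-fold for Erbb2.

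Erbb2 varied most among the receptors. Its level was 1683 CPM in wt1, 2360.0 in wt2 and 949.99 in wt3, against 3742 CPM in fx1, 1715 in fx2 and 2289.9 in fx3. The genotypes overlapped, since fx2 lay beside wt1 and wt2 lay above fx3, while fx1 was the highest and wt3 the lowest. Wt/wt averaged 1664 ± 705 CPM and fx/fx 2582 ± 1045 CPM (SD, n = 3 each), with a log2 fold change of 0.63 (SE 0.42) that did not pass (edgeR adjusted p = 0.546, DESeq2 adjusted p = 0.541). Without fx1 it was 0.25 and without wt3 0.34. The within-genotype SD of its log2 CPM was 0.62, at the 77.2th percentile of all genes tested, against percentiles of 35.5 for Egfr, 39.4 for Erbb3 and 46.5 for Erbb4.

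Ratios within a library do not depend on how libraries are scaled, and all 6 receptor pairs were compared by exact 2-sided permutation tests, for which 3 against 3 libraries cannot give a p under 0.1. The 3 ratios with Erbb4 were those whose genotypes did not overlap. All 3 use the same Erbb4 counts, so they are not separate results from each other or from its lower level. Per length, Erbb3 exceeded Erbb4 by 11.97-fold, 6.85-fold and 9.41-fold in the 3 wt/wt libraries, and by 14.6-fold, 15.1-fold and 24.2-fold in the 3 fx/fx libraries (difference of mean log2 ratios 0.93; exact p = 0.1, 0.2 adjusted over the 6 pairs). Erbb2 exceeded Erbb4 by 32.0-fold to 58.4-fold in wt/wt and by 87.0-fold to 247-fold in fx/fx (difference 1.71; exact p = 0.1, adjusted 0.2), and the Egfr to Erbb4 ratio was 0.725 to 1.93 and 2.19 to 2.72 (difference 0.90; exact p = 0.1, adjusted 0.2). Between Egfr and Erbb3 the mean log2 ratio was -2.82 ± 0.366 in wt/wt and -2.85 ± 0.272 in fx/fx (exact p = 0.8, n = 3 each). The Erbb2 to Erbb3 ratio differed by 0.78 and the Egfr to Erbb2 ratio by -0.81 (exact p = 0.3 and 0.4), with overlapping genotypes. Without fx1 these differences were 0.27 and -0.35, and without wt3 0.53 and -0.44. The difference of the Egfr to Erbb4 ratio was 0.48 without wt2.

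As shares of the summed counts per kb of the family, Erbb2 made up 79.7%, 84.5% and 72.8% in wt/wt and 93.3%, 82.5% and 83.7% in fx/fx. Means were 79.0 ± 5.89% and 86.5 ± 5.91% (SD, n = 3 each; exact permutation p = 0.3), and the genotypes overlapped because wt2 lay above fx2 and fx3. The difference of 7.504 percentage points was 4.11 without fx1 and 4.40 without wt3. Erbb3 held most of the rest, between 5.52% (fx1) and 21.4% (wt3). Erbb4 was at 1.36% to 2.27% in wt/wt and 0.377% to 0.948% in fx/fx, which did not overlap (exact p = 0.1). This share rests on the same Erbb4 counts as its CPM and ratios.

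**Figure D2:**
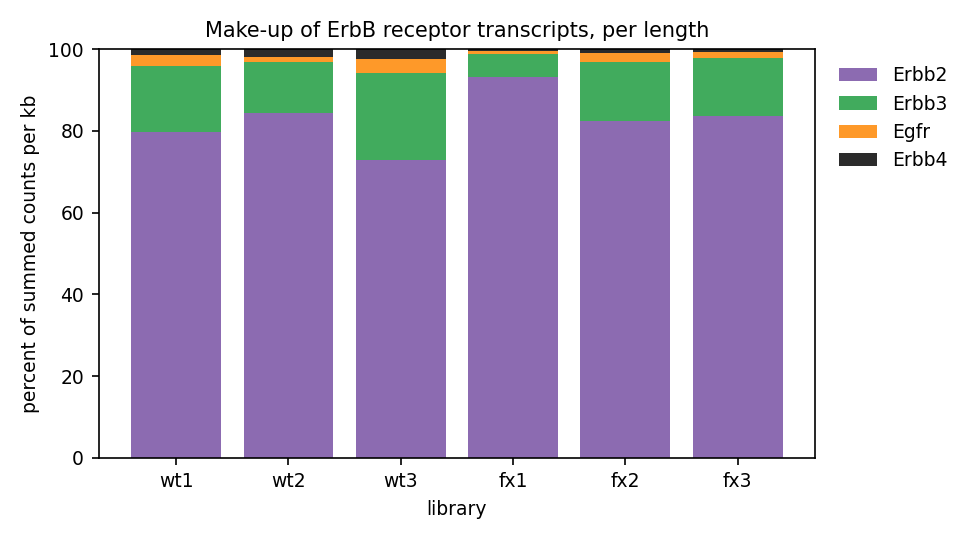
Share of each receptor in the summed counts per kb of the 4 receptors (percent, stacked to 100) in each library. Erbb2 fills 72.8% (wt3) to 93.3% (fx1) of each bar, and the black Erbb4 layer is thinner in all 3 fx/fx libraries than in any wt/wt library.

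The genes around each receptor were read beside it, since neighbours share a chromosome segment but not a promoter. For each library, the median over protein-coding genes within 5 Mb was taken of log2 CPM relative to the wt/wt mean. Around Erbb4, 32 genes had medians of 0.07, -0.29 and 0.04 in fx1, fx2 and fx3, while Erbb4 itself was at -1.21, -0.83 and -1.14. Erbb4 thus lay below the median of its neighbours in all 3 fx/fx libraries. It also did, by less, in wt1 (-0.28 against -0.15) and wt3 (-0.24 against -0.10). In wt2 both Erbb4 (0.52) and its neighbours (0.21) were above the wt/wt mean. Of the 32 genes, 7 had separated genotypes and were lower in fx/fx and 2 were separated and higher. Within 10 Mb, 9 of 105 were separated and lower and 6 higher. Over all genes tested, 9.93% were separated and lower and 9.74% higher, and no test was made of this.

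In fx1 the segments of Egfr and Erbb3 were lower as a whole. The 27 genes around Egfr had a median of -0.74 in fx1, against -0.04 in fx2 and 0.15 in fx3, and Egfr in fx1 was at -0.46. The 80 genes around Erbb3 had a median of -0.71 in fx1, against -0.09 and -0.05, and Erbb3 in fx1 was at -0.54. Each receptor therefore had its lowest level of all 6 libraries where its neighbours were also lowest. Without fx1, the log2 fold change of Egfr was -0.036 and that of Erbb3 0.066, and whether a change of the segment accounts for the low values in fx1 was not tested.

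**Figure D3:**
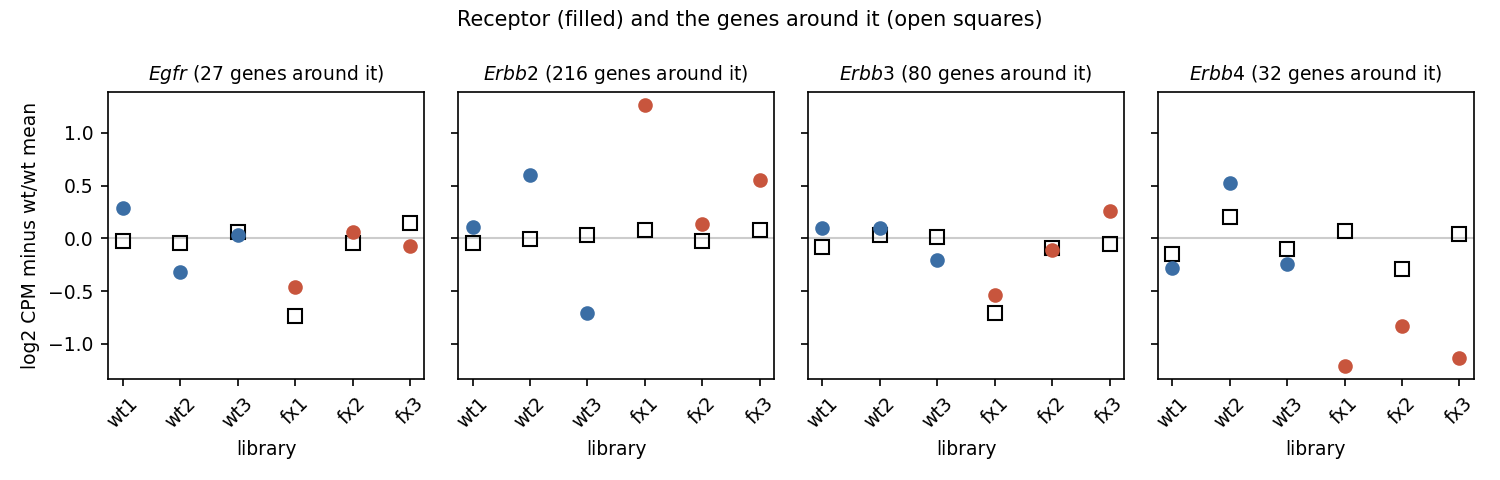
Log2 CPM relative to the wt/wt mean of each receptor (filled circles, blue wt/wt and red fx/fx) and the median of protein-coding genes within 5 Mb (open squares), by library. Squares fall to -0.74 around Egfr and -0.71 around Erbb3 in fx1, and stay between -0.04 and 0.08 around Erbb2, whose own values run from -0.71 to 1.27.

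Around Erbb2 the 216 genes within 5 Mb had medians between -0.04 and 0.08 in all libraries, whereas Erbb2 was at 1.27 in fx1 and -0.71 in wt3. Within 250 kb of the gene, 12 other protein-coding genes were tested, and their median log2 fold change was 0.02, with 7 higher and 5 lower. Of the 12, 0 were called by edgeR or DESeq2. An unadjusted edgeR p under 0.05 was found for 2, against 14.2% of all genes tested. Grb7, an adaptor that binds ErbB receptors, starts 33.9 kb from the Erbb2 start and measured 87.5, 94.0 and 65.0 CPM in wt/wt and 78.6, 78.8 and 93.6 CPM in fx/fx (log2 fold change 0.03). Pgap3, a GPI anchor remodelling gene whose start lies at -11.98 kb, measured 33.7, 35.2 and 37.8 CPM and 25.3, 31.1 and 32.3 CPM and was the neighbour with separated genotypes. Its log2 fold change was -0.27 (edgeR adjusted p = 0.544). Separated genotypes were found for 1 of the 12 neighbours, against 19.7% of all genes tested. Stard3 (0.02), Mien1 (-0.16), Med1 (-0.02), Cdk12 (0.17) and Psmd3 (-0.10) had small log2 fold changes, and Ormdl3 had 0.50. Ppp1r1b (2.31), Gsdma3 (3.43) and Ikzf3 (-1.19) were at low levels, at most 20.9 CPM in any library, and so was the predicted gene Gm12355 (0.24). Native and transgene reads of Erbb2 cannot be told apart in these counts.

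**Figure D4:**
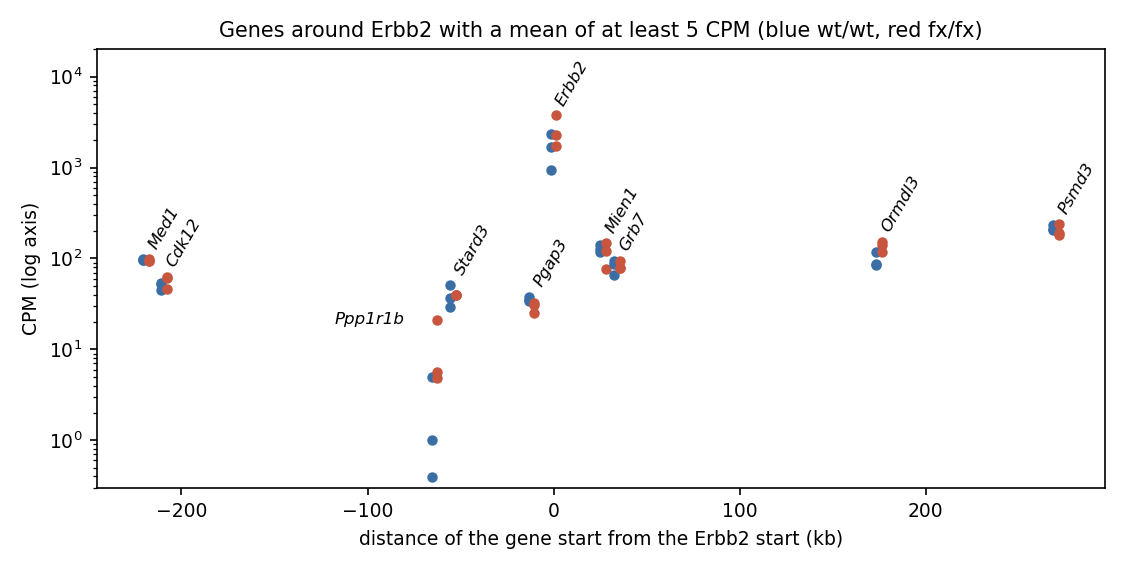
Levels (CPM, log axis) of the genes around Erbb2 with a mean of at least 5 CPM, by distance of their start from that of Erbb2 in kb, with 3 blue points for wt/wt and 3 red points for fx/fx. Erbb2, at 949.99 to 3742 CPM, stands above all its neighbours, which measured at most 241 CPM.

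Promoter sequence is shown for Erbb4, as the receptor with separated genotypes, and for Erbb2, whose native promoter is not the one that drives the transgene. The sequences are the 250 bases before the RefSeq start on GRCm38.p6, 5′ to 3′ on the gene's strand, Erbb4 from chr1:69108060-69108309 (minus) and Erbb2 from chr11:98412234-98412483 (plus). Capitals mark a match on either strand to 1 of 4 motifs, which do not overlap in these windows. The motif for the start-site box searched was TATAAA. The box bound by the factor NF-Y was searched as CCAAT. Sp1-type boxes were searched as GGGCGG, and sites of the AP-2 type as GCCNNNGGC.
Erbb4: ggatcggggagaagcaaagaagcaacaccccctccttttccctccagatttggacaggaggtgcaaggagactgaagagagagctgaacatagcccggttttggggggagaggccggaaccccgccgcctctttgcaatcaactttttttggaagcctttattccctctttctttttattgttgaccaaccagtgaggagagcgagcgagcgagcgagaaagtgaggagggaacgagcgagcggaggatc
Erbb2: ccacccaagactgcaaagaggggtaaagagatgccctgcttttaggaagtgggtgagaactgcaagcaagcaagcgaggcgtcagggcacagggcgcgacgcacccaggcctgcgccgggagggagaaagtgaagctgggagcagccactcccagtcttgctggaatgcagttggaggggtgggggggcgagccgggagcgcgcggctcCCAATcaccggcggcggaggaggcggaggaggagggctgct
The Erbb4 window held none of the 4 motifs and the Erbb2 window held 1 CCAAT, starting 41 bases before the start. Among 32851 RefSeq promoter windows of the same length, 12.4% held TATAAA, 33.8% CCAAT, 32.7% GGGCGG and 13.7% GCCNNNGGC. GC content was 54% for Erbb4 and 66% for Erbb2, against a median of 52.4%. RefSeq promoter entries were matched by symbol for 3 of the 4 receptors (Egfr, Erbb2 and Erbb4).

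Over the 6 libraries, the protein-coding genes with a mean of at least 5 CPM whose log2 CPM was most like that of each receptor were ranked by Pearson's r, as a description among 10722 genes. For Erbb4 these were Zfr2 (r = 0.998), Dhdh (0.990) and Azin2 (0.990), and Zfr2 measured 15.5, 23.7 and 16.7 CPM in wt/wt and 9.64, 12.1 and 9.87 CPM in fx/fx. For Erbb2 they were Tec (0.996), Jak3 (0.971) and Ino80d (0.970), with Tec, a cytoplasmic tyrosine kinase, at 13.6 CPM in wt3 and 21.5 CPM in fx1. Erbb3 was matched by Serinc5 (0.991), Vezt (0.983) and Lig1 (0.983). Egfr was matched by Kctd14 (0.991), St8sia5 (0.976) and Dcp2 (0.973). With 6 libraries and this many genes, high r are found for any gene, and all points share the same libraries.

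Of the 11 ErbB ligands, 8 passed the filter on low counts, with a median log2 fold change of -0.08 (0.22 without wt3) against -0.0043 over all genes tested. By edgeR 0 passed (smallest adjusted p = 0.182), and DESeq2 called 1 higher and 1 lower, against 2.89% and 1.72% of all genes. Genotypes were separated for 1 higher and 1 lower, against 9.74% and 9.93% of all genes tested. Tgfa, a ligand of Egfr, measured 41.3, 39.6 and 71.1 CPM in wt/wt and 134, 96.4 and 137 CPM in fx/fx, without overlap, 2.41-fold higher (log2 fold change 1.27, SE 0.28; DESeq2 adjusted p = 0.00896, edgeR adjusted p = 0.182). Egf, another ligand of the same receptor, measured 172, 185 and 180.5 CPM in wt/wt and 15.8, 38.0 and 98.8 CPM in fx/fx, also without overlap, 3.53-fold lower (log2 fold change -1.82, SE 0.59; DESeq2 adjusted p = 0.0281, edgeR adjusted p = 0.251). The values of these 2 ligands lay in opposite directions, neither passed the edgeR test, and Egfr itself overlapped. Separation of 1 of 8 ligands in each direction was near the shares of all genes tested.

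With 1 library left out, the DESeq2 call of Tgfa was lost without wt1, wt2 or fx1 (adjusted p between 0.0591 and 0.102), at log2 fold changes of 1.14, 1.102 and 1.19. That of Egf was lost without wt1, wt2, wt3 or fx2 (between 0.0870 and 0.133), at log2 fold changes of -1.85, -1.82, -1.82 and -1.67. Fx1 and fx2 had the lowest Egf levels, and fx3 lay between them and wt/wt.

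Neuregulins bind ErbB4, and some of them also ErbB3. Nrg2 was the neuregulin with the highest CPM, at 66.3, 84.0 and 76.5 CPM in wt/wt and 61.2, 62.6 and 79.1 CPM in fx/fx (log2 fold change -0.16), and its genotypes overlapped. Nrg1 measured 5.89, 12.1 and 6.44 CPM in wt/wt and 1.45, 13.4 and 1.38 CPM in fx/fx, with its highest library, fx2, in the same genotype as its 2 lowest (log2 fold change -0.59, SE 0.89). Hbegf, which binds Egfr and ErbB4, was at 2.02 to 7.46 CPM in wt/wt and at 28.0 CPM in fx1, with 4.66 and 7.52 CPM in fx2 and fx3. Btc, a ligand of the same receptors, lay between 7.71 and 11.4 CPM in all libraries. Areg and Nrg4 stayed at 2.42 CPM or less, and Ereg, Epgn and Nrg3 did not pass the filter.

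**Figure D5:**
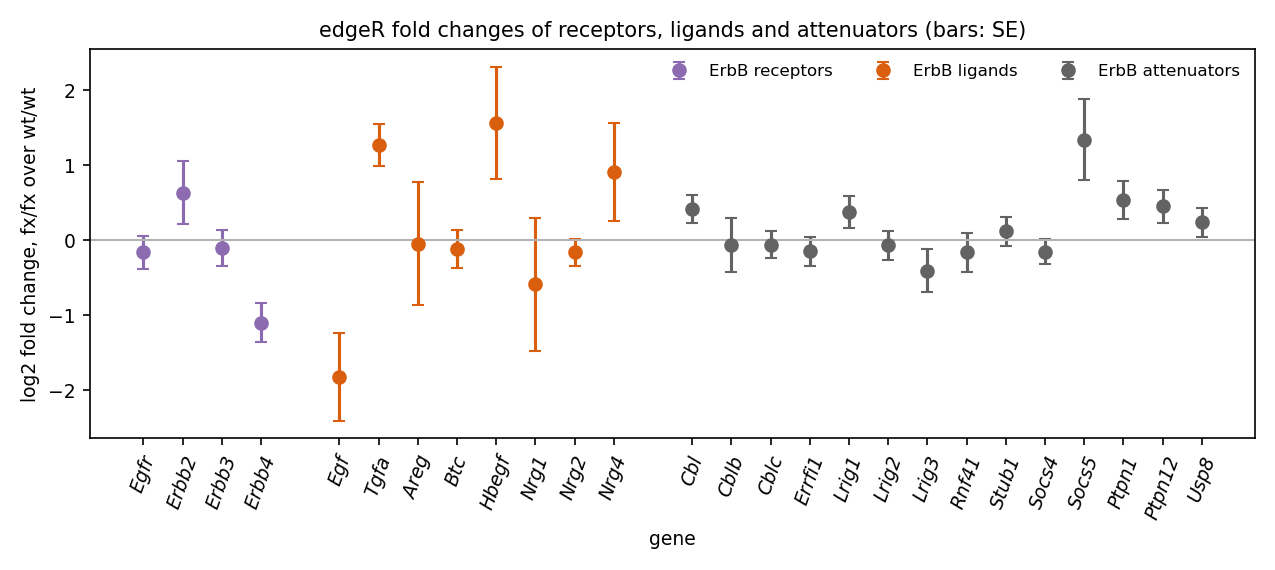
Log2 fold changes, fx/fx over wt/wt, from edgeR with SE bars, for the receptors, the ligands and the attenuators that were tested. Among receptors Erbb4 lies lowest at -1.10, and among ligands Egf (-1.82) and Tgfa (1.27) lie to either side of 0; none of the genes plotted passed the adjusted edgeR test.

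The 32 adaptors and kinases downstream of the receptors had a median log2 fold change of 0.06 (0.17 without wt3), with 21 higher and 11 lower, 0 called by edgeR (smallest adjusted p = 0.228) and 2 separated, both higher, where 9.74% of all genes were separated and higher. DESeq2 called 1 of the 32, against 2.89% of all genes called higher. The gene called was Pik3r3, a regulatory subunit of phosphoinositide 3-kinase, which measured 5.96, 5.07 and 14.3 CPM in wt/wt and 33.6, 84.0 and 14.2 CPM in fx/fx. Fx3 lay beside wt3 (DESeq2 adjusted p = 0.00896, edgeR adjusted p = 0.228), and the call was lost without wt1, wt2 or fx2, at log2 fold changes of 2.18, 2.11 and 1.495. Stat5a, which ErbB4 activates in the lactating gland, measured 116, 97.1 and 93.5 CPM in wt/wt and 56.5, 93.9 and 89.7 CPM in fx/fx and was chosen after its values were seen. Its log2 fold change was -0.35 (edgeR adjusted p = 0.532).

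Attenuators, listed here as genes of receptor turnover and inhibition, numbered 14, all tested, with 7 higher and 7 lower and a median log2 fold change of 0.03. By edgeR 0 passed (smallest adjusted p = 0.328), DESeq2 called 0, and 1 had an unadjusted edgeR p under 0.05, against 14.2% of all genes tested. That gene was Socs5, a suppressor of cytokine signalling that promotes Egfr degradation, at 50.7, 47.1 and 62.8 CPM in wt/wt and 268, 68.7 and 69.5 CPM in fx/fx, without overlap but with fx1 far above the other libraries (log2 fold change 1.34). Of the 14 attenuators 2 were separated, both higher, against 9.74% of all genes separated in that direction. Cbl, a ubiquitin ligase of activated receptors, measured 52.5, 42.8 and 49.9 CPM in wt/wt and 75.6, 64.4 and 54.3 CPM in fx/fx (log2 fold change 0.42, edgeR adjusted p = 0.367), also without overlap.

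Chaperones and partners numbered 7, of which 6 were tested, with a median log2 fold change of 0.02, 0 calls by edgeR (0 at an unadjusted p under 0.05) and 0 by DESeq2. Muc1, a mucin that associates with ErbB receptors, measured 6.05, 5.29 and 2.99 CPM in wt/wt and 11.4, 5.44 and 6.28 CPM in fx/fx (log2 fold change 0.69, edgeR adjusted p = 0.504). Pa2g4, which encodes the ErbB3 binding protein Ebp1, measured 239, 235 and 266 CPM in wt/wt and 94.5, 205 and 222 CPM in fx/fx. Its genotypes were separated, as were those of 9.93% of all genes tested in that direction. Pa2g4 was lowest in fx1 (log2 fold change -0.50, edgeR adjusted p = 0.517). In that library the ribosomal protein genes and the genes within 5 Mb of Erbb3 (median -0.71) were also lowest. Whether these low values go together was not tested.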

How the data were processed

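The deposited values were raw counts of read pairs per gene, 1 file per library, made by the authors with featureCounts 1.6.0 and strand option 2 against Ensembl release 93 of GRCm38, per the file headers. The submitters' processing notes name STAR 2.5.1b, featureCounts 1.4.6 and DESeq2 1.12.3. The other deposited column used was the summed exon length of each gene, per the file headers. GENCODE M21, also on GRCm38, gave symbols for 54165 of 54232 gene rows, 52910 rows having the same start and end in both.

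Genotypes were compared over all genes with edgeR 4.0.16 (R 4.3.3): filterByExpr, TMM, quasi-likelihood test with robust=TRUE, 2-sided, Benjamini-Hochberg adjustment, threshold 0.05. DESeq2 1.42.0 and limma 3.58.1 (voom) were alternatives. CPM use TMM-scaled library sizes, log2 CPM a prior count of 2, and errors are SDs over 3 libraries unless named SE. A count of 0 allows up to 3 counts, or 0.056 to 0.0817 CPM, for counting error only. Ratios were compared by exact permutation over 20 orderings. The edgeR, DESeq2 and limma fits were tested on simulated counts, on which DESeq2 made more false calls than its threshold allows and more than edgeR.

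The receptors, the pathway and marker lists and the tests were chosen with earlier results of these data known. Named genes were the receptors, Arhgap31, the 3 genes most like each receptor, tested neighbours of Erbb2 within 250 kb, ligands with a mean of at least 1 CPM, and from each other pathway list the DESeq2 or edgeR calls (up to 4) or else the 2 members with the smallest edgeR p. Marker lists were described by counts and sums, and Krt5, Krt14, Krt17, Acta2, Mylk, Tagln, Sox10 and Stat5a were named outside this rule after their values were seen.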

Additional observations from a re-analysis of the deposited data

How the results depend on the processing

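Egfr and Erbb2 kept their direction and did not pass under any of the 18 alternatives, and Erbb4 was lower under all of its 18. DESeq2 on all libraries called Erbb4 (log2 fold change -1.10) and no other receptor, and with a library left out its DESeq2 value ranged from -1.23 to -0.81, settings chosen after seeing the data (-1.23 without wt1, -1.22 without wt3 and -1.23 without fx2, where the call remained). Erbb3 reversed without fx1, to 0.066 in edgeR and 0.069 in DESeq2, the upper ends of ranges that reach down to -0.30 and -0.31. The Egfr to Erbb3 ratio ranged from -0.24 to 0.13 with a library left out and changed sign without wt1 (0.07), wt3 (0.09) or fx3 (0.13). The cause was not tested.

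The count of called genes was 0 by edgeR and limma-voom, 38 by edgeR without the filter on low counts and 831 by DESeq2. With a library left out it was 0 to 2 by edgeR (2 without fx2), and by DESeq2 it was 412 without wt1, 573 without wt2, 544 without wt3, 508 without fx1, 1622 without fx2 and 856 without fx3. With a library left out, list medians ranged from -0.17 to 0.22 for ligands (changing sign without wt3), from 0.046 to 0.17 for adaptors and kinases, from -0.015 to 0.17 for attenuators and from -0.090 to 0.12 for chaperones and partners.

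Same-numbered libraries did not deviate together (correlations of -0.08, -0.09 and 0.06, against -0.22 to 0.28 between libraries of different number). With 3 libraries a group, these values cannot decide whether the replicate numbers pair the samples, and the labels do not say. With the replicate number as a block, edgeR called 0 genes and Erbb4 had a log2 fold change of -1.06 (adjusted p = 0.2498). With 3 libraries a group, a log2 difference as large as that of Erbb4 did not pass the adjusted edgeR test. Nor did the targeted gene Arhgap31, at a log2 fold change of -2.38 (5.22-fold lower in fx/fx, edgeR adjusted p = 0.153). DESeq2 called Arhgap31 lower (adjusted p = 4.69e-05).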
